A study of Mus musculus with 51 samples.

Results

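Potassium, sodium, calcium and TRP channel genes of the mouse were followed through 4 sorted fractions of control and fibrotic lung. A gene entered the set where its symbol matched the naming pattern of potassium channel subunits (Kcn, with Kcnma and Kcnmb), sodium channel subunits (Scn), calcium channel subunits (Cacna, Cacnb, Cacng) or the TRPA, TRPC, TRPM and TRPV families, with antisense and opposite-strand genes left out. This gave 149 of the 36528 Entrez gene identifiers in the count table, and 5 further matches were left out. One match, Trpc4ap, encodes a protein that associates with a TRPC channel and is not a channel itself. The rule read symbols only. All 149 had a count in at least 1 library, but the filter on low counts let 115 be tested in at least 1 fraction and 42 in all 4. The 34 tested nowhere include Trpa1, Trpv1, Trpm8 and Scn9a, which are best known from sensory neurons, and Kcne1.

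The animals were male C57/B6 mice that had been given saline (5 animals) or bleomycin (8 animals) into the trachea and were examined at day 14. Bleomycin injures the epithelium and is the standard means of inducing lung fibrosis in mice. Cells were sorted on surface markers into an epithelial fraction (EpCAM+), leukocytes (CD45+), an endothelial fraction (CD31+) and a triple-negative rest that carried none of the 3 proteins. Each fraction gave 5 saline and 8 bleomycin libraries, except CD31+ with 7 bleomycin libraries. A library is named by its treatment, its fraction (Negative for triple-negative) and its number. By the animal numbers the fractions share animals, but which libraries came from 1 animal is not given in the sources used here.

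The pore-forming subunits of these channels let potassium, sodium or calcium ions through the membrane, while auxiliary subunits shape their gating, their drug response and their transport to the cell surface. Potassium channels set the resting membrane potential, voltage-gated sodium and calcium channels open when the membrane depolarises, and TRP channels are cation channels opened by chemical, thermal or mechanical stimuli or by lipid messengers. In the lung they are known for setting the tone of airway and vascular smooth muscle, for calcium signals of leukocytes and endothelium, and for the ion and fluid transport of the epithelium.

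The libraries held 15692665 to 36514885 counts (median 22717142). The fractions carried their labelled markers: on the scale of the mean log2(CPM + 0.5) over a list, where CPM is the count per 1000000 of the TMM-scaled library size, each fraction's own class stood between 9.12 and 11.03 in every library. The other sort classes reached at most 7.33, the level of fibroblast-type markers in Bleomycin_CD45_613, and 7.10, the level of epithelial markers in Bleomycin_CD31_621. In such sorted bulk samples, fewer cells of a type and less RNA per cell cannot be told apart. The labels do not say whether each library of a fraction came from its own animal, so p-values measure the spread between these libraries. Tests across fractions treat libraries as independent although the fractions share animals. A gene is called higher or lower after bleomycin where the quasi-likelihood F test of edgeR gave a Benjamini-Hochberg adjusted p under 0.05 over all genes tested in the fraction.

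The largest changes of channel genes in triple-negative cells were the fall of Cacna1e and the rise of Cacng5, and promoters are shown for these and for 2 further genes that fell there, Kcna5 and Trpc6. The sequences are the 300 bases from 250 before to 50 after a transcription start in RefSeq on GRCm38.p6, read 5′ to 3′ along the gene, in lower case with a found motif in capitals. The capitals mark GGAATG, the core sequence bound by TEAD factors, for Cacna1e (chr1:154725871-154726170, minus strand) and on the other strand for Kcna5 (chr6:126535506-126535805, minus strand), the CArG box of serum response factor for Trpc6 (chr9:8543892-8544191, plus strand) and TGANTCA, bound by AP-1, for Cacng5 (chr11:107915006-107915305, minus strand).
Cacna1e: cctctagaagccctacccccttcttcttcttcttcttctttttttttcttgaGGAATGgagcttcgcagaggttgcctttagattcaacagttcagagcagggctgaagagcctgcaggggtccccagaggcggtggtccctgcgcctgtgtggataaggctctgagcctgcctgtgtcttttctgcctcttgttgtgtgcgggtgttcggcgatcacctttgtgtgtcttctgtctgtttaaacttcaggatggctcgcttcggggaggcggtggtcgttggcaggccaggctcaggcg
Kcna5: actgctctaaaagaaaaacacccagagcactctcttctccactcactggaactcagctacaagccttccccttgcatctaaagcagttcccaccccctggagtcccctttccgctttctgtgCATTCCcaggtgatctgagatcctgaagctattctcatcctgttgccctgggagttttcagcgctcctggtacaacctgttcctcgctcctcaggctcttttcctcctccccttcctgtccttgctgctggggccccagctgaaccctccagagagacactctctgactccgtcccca
Trpc6: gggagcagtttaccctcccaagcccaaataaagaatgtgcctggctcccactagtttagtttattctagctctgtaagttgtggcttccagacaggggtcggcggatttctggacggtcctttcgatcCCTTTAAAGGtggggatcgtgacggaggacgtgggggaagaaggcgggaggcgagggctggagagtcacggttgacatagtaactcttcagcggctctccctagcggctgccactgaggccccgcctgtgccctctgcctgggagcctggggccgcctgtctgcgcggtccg
Cacng5: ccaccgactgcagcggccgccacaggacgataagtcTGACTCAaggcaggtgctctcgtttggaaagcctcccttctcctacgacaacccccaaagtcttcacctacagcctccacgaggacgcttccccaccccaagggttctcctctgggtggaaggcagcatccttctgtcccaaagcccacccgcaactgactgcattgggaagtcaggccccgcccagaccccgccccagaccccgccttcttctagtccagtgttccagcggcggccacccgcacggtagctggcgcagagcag
The motifs begin at positions -198, -128, -122 and -214 relative to the start. The start used for Cacna1e lies inside the annotated gene (bases 154390806 to 154884785), not at its upstream end. The whole window shown for Trpc6, with its CArG box, also lies inside the annotated gene (bases 8543867 to 8680752). Promoters were on hand for 112 channel genes, and 4 motifs were searched on both strands, namely the CArG box, TGANTCA of AP-1, the TEAD core GGAATG and CCGGAAG, which ETS factors bind. GGAATG occurred in 13 of 50 promoters (26.0%) of channel genes that fell in triple-negative cells and in 4 of 17 (23.5%) of those that rose. It occurred in 1 of 19 (5.26%) of those past the threshold in neither direction. Its share was 18.9% of the 143 promoters of channel genes and 14.6% of all 32544 promoters in the table. The sets are small, and their differences were not tested. The CArG box occurred in 2.0% of the promoters of the genes that fell, with Trpc6 the only such gene, and in 1.64% of all promoters. TGANTCA occurred in 2 of 50 promoters of genes that fell (4.0%), in 1 of 17 of genes that rose (5.88%) and in 7.79% of all promoters. CCGGAAG occurred in 1 of 50 of those that fell (2.0%) and in 8.91% of all. A second promoter listed for Cacng5 held none of the 4 motifs. A match describes letters in this window and was not tested as a binding site.

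In saline lungs the channel genes were divided among the fractions, and triple-negative cells held the most. A gene was called highest in a fraction where it was at least 2-fold above each of the other 3 saline fractions with an adjusted p under 0.05. This p was the largest of the 3 p-values in 1 edgeR fit of all 51 libraries, then adjusted by Benjamini-Hochberg over all genes. Of 116 channel genes tested there, 45 were highest in triple-negative cells (38.8%), against 10.5% of all 19841 genes tested. In EpCAM+ cells 20 were highest (17.2%, against 12.2% of all genes), in CD45+ cells 18 (15.5%, against 12.9%) and in CD31+ cells 9 (7.76%, against 5.62%). Together 92 channel genes (79.3%) were highest in 1 fraction by this rule, against 41.3% of all genes.

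**Figure D1:**
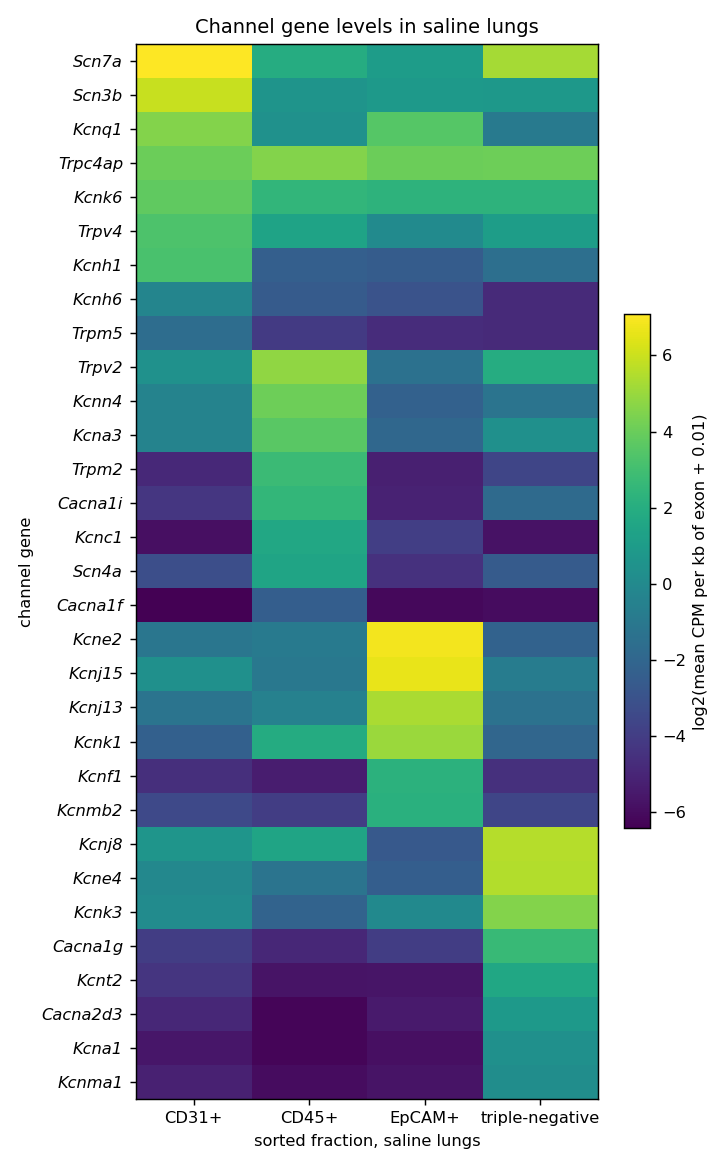
Colour gives the log2 of the mean level (CPM per kb of exon, 0.01 added) of channel genes in the 5 saline libraries of each sorted fraction, for genes among the 5 of highest level or the 6 called highest by the widest margin in each fraction. Blocks of high level run from CD31+ genes at the top to triple-negative genes at the bottom, and Trpc4ap is above 10 CPM per kb in all 4 columns.

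The 2 highest levels of CD31+ cells belonged to sodium channel genes. Levels between genes are given in CPM per kb of exon (mean ± SD, n = 5 saline libraries). Scn7a, which encodes an atypical sodium channel linked to sodium sensing, stood at 135 ± 25.6 in CD31+ cells and at 38.1 ± 5.22 in triple-negative cells, the next fraction. Scn3b, a sodium channel beta subunit, stood at 61.5 ± 6.85 in CD31+ cells and no higher than 1.85 ± 0.433 elsewhere, a smallest log2 difference of 5.05 (adjusted p = 1.46e-17). Kcnh1, a voltage-gated potassium pore of the EAG family, was at 9.26 ± 2.25 and exceeded the other fractions by at least 4.74 on the log2 scale (adjusted p = 6.69e-16). Trpv4, a calcium-permeable channel that responds to osmotic and mechanical stimuli, was at 9.96 ± 2.67 in CD31+ cells, followed by CD45+ cells (2.66 ± 1.10) and triple-negative cells (2.15 ± 0.263), whose means lay closer together than the SD of the CD45+ libraries. Kcnq1, Trpc4ap and Kcnk6 completed the 5 highest levels, at 24.2 ± 3.23, 16.4 ± 0.485 and 13.8 ± 1.36. Kcnh6 and Trpm5 were also called highest here, at the low levels of 0.816 ± 0.250 and 0.323 ± 0.0695.

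CD45+ cells carried channels known from immune cells. Trpv2, a calcium-permeable channel of macrophages, led at 28.4 ± 1.39, then Trpc4ap at 24.0 ± 1.56 and Kcnn4, the intermediate-conductance calcium-activated potassium channel of lymphocytes and macrophages, at 17.4 ± 3.20. Kcna3, the voltage-gated potassium channel of T cells, was at 12.2 ± 2.06 and Trpm2, a cation channel opened by ADP-ribose under oxidative stress, at 6.76 ± 1.24. Trpm2 exceeded every other fraction by at least 6.57 on the log2 scale (adjusted p = 1.78e-17), the widest margin in this fraction. Kcnc1 (5.80), Cacna1f (4.94), Kcnn4 (4.51), Cacna1i (4.30) and Scn4a (4.13) followed by the smallest log2 difference. Cacna1f, a calcium channel pore best known from the retina, was at only 0.181 ± 0.0286 CPM per kb.

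The widest margins of EpCAM+ cells were those of potassium channel genes. Kcne2, a small auxiliary subunit of KCNQ1 and other pores, and Kcnj15, an inward rectifier, stood at 115 ± 7.99 and 100.02 ± 7.37 CPM per kb. Kcne2 exceeded the other fractions by at least 7.73 on the log2 scale (adjusted p = 7.27e-17) and Kcnj15 by 6.29. The inward rectifier Kcnj13 (41.7 ± 5.52) and the two-pore-domain leak channel Kcnk1 (33.3 ± 2.25) came next. Kcnf1, a subunit that is silent on its own, and Kcnmb2, a beta subunit of the large-conductance calcium-activated BK channel, were lower, at 4.78 ± 0.640 and 4.48 ± 0.666, but exceeded the other fractions by 7.16 and 5.78. Exons of Kcnj13 overlap those of Gigyf2 on the opposite strand over 49.1% of their length. The strand setting of the counting is not given in the sources used here, so reads of this pair cannot be told apart.

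The highest levels of triple-negative cells were those of 2 potassium channel genes. Kcnj8, the pore of the vascular ATP-sensitive potassium channel of pericytes and smooth muscle, stood at 48.4 ± 17.5 CPM per kb, and Kcne4, an inhibitory KCNE subunit, at 46.5 ± 14.0. Scn7a and Kcnk3, an acid-sensitive leak channel of pulmonary artery smooth muscle, were at 38.1 ± 5.22 and 23.6 ± 5.16. The widest margins over the other fractions were those of Cacna1g, a T-type calcium channel pore (6.89 on the log2 scale, adjusted p = 1.61e-17), and Kcna1, a voltage-gated potassium pore (6.84). Cacna2d3 (6.25), the sodium-activated Kcnt2 (6.24), the BK pore Kcnma1 (6.04) and Kcne4 (5.67) followed. Cacna1g itself stood at 6.45 ± 2.37 CPM per kb, against at most 0.0539 ± 0.0177 in the other fractions.

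After bleomycin, 97 of the 115 channel genes tested in at least 1 fraction changed in 1 or more (84.3%), a share near the 86% of all 19585 genes so tested. In triple-negative cells 48 of 91 tested channel genes fell (52.7%), against 27.7% of all 16700 genes tested, and 14 rose (15.4%, against 27.7%), so that 68.1% changed either way against 55.4% of all genes. Their median log2 difference was -0.55, against 0.01 over all genes. In CD31+ cells 18 of 65 fell (27.7%, against 24.6% of all genes) and 12 rose (18.5%, against 24.2%), in all 46.2% against 48.8%. In CD45+ cells 24 of 73 fell (32.9%, against 26.8%) and 18 rose (24.7%, against 28.4%), in all 57.5% against 55.3%. In EpCAM+ cells 19 of 73 fell (26.0%, against 28.9%) and 23 rose (31.5%, against 31.2%), in all 57.5% against 60.2%. Without the low-count filter 38 rose in EpCAM+ cells, but more genes were tested then. The share of all genes in that run is not given here, so the 38 cannot be read as an excess. The median log2 difference was -0.09 in CD31+, -0.32 in CD45+ and 0.23 in EpCAM+ cells, against -0.01, 0.00 and 0.02 over all genes. In 39 channel genes of triple-negative cells (42.9%) the saline and bleomycin libraries did not overlap, against 29.7% of all genes, and 33 of the 39 were lower after bleomycin. Groups did not overlap for 17 channel genes in CD31+ (26.2%, against 26.4%), 26 in CD45+ (35.6%, against 31.4%) and 25 in EpCAM+ cells (34.2%, against 35.8%).

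**Figure D2:**
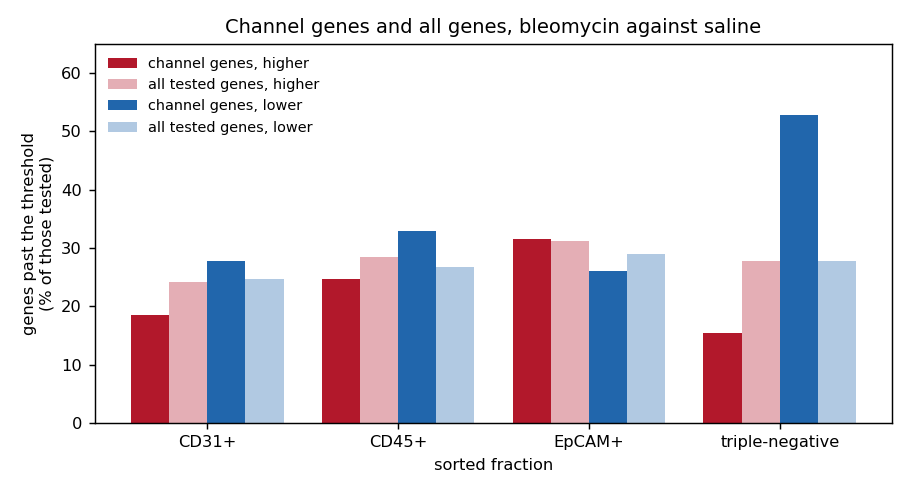
Bars give the percentage of tested genes that were higher (red) or lower (blue) after bleomycin in each sorted fraction, with channel genes in full colour and all tested genes in pale colour. The bar of channel genes that were lower in triple-negative cells, at 52.7%, stands above the 27.7% of all genes, while the other pairs of bars lie closer together except for the genes that rose in triple-negative cells.

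In triple-negative cells 5 of 6 tested alpha1 subunits, the pores of calcium channels, fell, against 27.7% of all genes. The sixth, Cacna1d, had a log2 difference of 0.68 and did not pass (adjusted p = 0.0724). Cacna1e (Entrez 12290, chromosome 1, bases 154390806 to 154884785 on GRCm38.p6), the pore of the R-type calcium channel, was measured at 16.3, 18.0, 20.5, 29.8 and 36.7 CPM in the saline libraries. Its 8 bleomycin libraries ran from 0.714 to 2.02 CPM with a median of 1.01 CPM (log2 difference -4.29 ± 0.26 (SE), adjusted p = 8.98e-08). Every bleomycin library lay far below the lowest saline library, and this was the largest fall of a channel gene in the fraction. Cacna1g stood at 34.3, 39.4, 71.0, 74.0 and 84.2 CPM in saline libraries and from 8.88 to 26.9 CPM with a median of 15.4 CPM after bleomycin (log2 difference -1.91 ± 0.28 (SE), adjusted p = 6.75e-05), again with no overlap. Cacna1h, another T-type pore, went from 5.45 ± 1.34 to 2.49 ± 0.685 CPM (log2 difference -1.12) and Cacna1c, the L-type pore of smooth and cardiac muscle, from 158 ± 8.20 to 127 ± 13.4 CPM (log2 difference -0.31). Cacna1a fell by 1.34 on the log2 scale. Of the alpha2delta subunits, which carry the pore to the surface, Cacna2d2 (-1.66) and Cacna2d3 (-1.55) fell and Cacna2d1 (0.30) rose.

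Potassium channels of the calcium- and sodium-activated class fell in 5 of 7 tested members, against 27.7% of all genes. Kcnma1, the BK pore, was at 14.1, 15.7, 17.9, 20.1 and 22.7 CPM in saline libraries. After bleomycin it ran from 2.41 to 5.26 CPM with a median of 4.13 CPM (log2 difference -2.18 ± 0.16 (SE), adjusted p = 2.14e-07). No bleomycin library reached the lowest saline library. Its smooth muscle beta subunit Kcnmb1 also fell (log2 difference -1.71), whereas Kcnmb4, the neuronal beta subunit, rose from 0.0926 ± 0.0993 to 0.734 ± 0.334 CPM (log2 difference 2.96 ± 0.58 (SE), adjusted p = 0.000625) and Kcnmb2 rose from 0.212 ± 0.127 to 1.02 ± 0.448 CPM (log2 difference 2.26). Exons of Kcnmb4 overlap 2 antisense genes, Kcnmb4os2 over 20.8% and Kcnmb4os1 over 10.7% of their length. Kcnt2 held 14.1, 14.3, 18.5, 21.6 and 28.2 CPM in saline libraries and from 3.38 to 6.47 CPM with a median of 4.12 CPM after bleomycin (log2 difference -2.08 ± 0.20 (SE), adjusted p = 1.69e-06), with separate groups. Kcnn4 went the other way: 1.36, 2.04, 2.11, 2.11 and 2.39 CPM in saline libraries, and after bleomycin from 3.84 to 7.40 CPM with a median of 5.74 CPM (log2 difference 1.51 ± 0.20 (SE), adjusted p = 1.98e-05), so that every bleomycin library was above every saline library.

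Among voltage-gated potassium pores, 10 of 22 tested fell and 2 rose. In this fraction 27.7% of all genes and 52.7% of the tested channel genes fell. Kcna5, a channel of pulmonary artery smooth muscle, was at 9.62, 11.3, 11.7, 14.3 and 15.4 CPM in saline libraries and from 1.34 to 3.44 CPM with a median of 2.28 CPM after bleomycin (log2 difference -2.46 ± 0.19 (SE), adjusted p = 3.46e-07). The groups did not overlap. Kcna1 fell from 5.52 ± 1.51 to 1.28 ± 0.430 CPM (log2 difference -2.12). The 2 that rose were Kcnh1 (1.18) and Kcng1 (0.84), a silent modulatory subunit. The KCNE subunit Kcne4, one of the most abundant channel genes of the fraction, had means of 114 ± 34.2 CPM in saline and 107 ± 28.1 CPM in bleomycin libraries and did not pass the test (adjusted p = 0.706).

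Of the 8 two-pore-domain leak channels tested, 5 fell and 3 rose, while 27.7% of all genes fell and 27.7% rose. Kcnk3 held 61.5, 79.3, 82.3, 105 and 107 CPM in saline libraries and from 36.8 to 73.8 CPM with a median of 53.5 CPM after bleomycin (log2 difference -0.71 ± 0.16 (SE), adjusted p = 0.00166), with some overlap. Kcnk2, a mechanosensitive leak channel, fell from 19.6 ± 1.32 to 9.83 ± 2.97 CPM (log2 difference -0.99), while Kcnk12 rose from 0.311 ± 0.0973 to 1.15 ± 0.382 CPM (log2 difference 1.88) and Kcnk1 rose from 0.506 ± 0.321 to 1.43 ± 0.542 CPM (log2 difference 1.48). EpCAM+ libraries held 115 to 407 counts of Kcnk12 and 1037 to 2195 counts of Kcnk1, and the part of epithelial RNA in both rises was not tested. Inward rectifiers moved both ways. Kcnj11, the pore of the ATP-sensitive channel of heart and pancreas, fell (from 0.811 ± 0.294 to 0.102 ± 0.0780 CPM, log2 difference -2.93 ± 0.42 (SE), adjusted p = 4.02e-05), and Kcnj15 rose, from saline values of 2.39, 2.54, 3.31, 4.13 and 4.53 CPM to bleomycin values from 5.40 to 18.8 CPM with a median of 9.82 CPM (log2 difference 1.64 ± 0.28 (SE), adjusted p = 0.000203). For Kcnj8, the vascular pore, saline libraries held 69.98, 93.0, 105, 123 and 179 CPM and bleomycin libraries ran from 76.5 to 97.9 CPM with a median of 86.1 CPM (log2 difference -0.41 ± 0.16 (SE), adjusted p = 0.0458). The call was lost when any 1 of 10 libraries was left out, the highest saline library among them: without Saline_Negative_661 the log2 difference was -0.19 (adjusted p = 0.190).

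Sodium and TRP channels of triple-negative cells fell where they changed. Scn7a held 222, 224, 263, 287 and 299 CPM in saline libraries and from 130.1 to 265 CPM with a median of 161 CPM after bleomycin (log2 difference -0.55 ± 0.15 (SE), adjusted p = 0.00524), with overlapping groups. Scn4b, a sodium channel beta subunit, fell from 1.38 ± 0.621 to 0.656 ± 0.163 CPM (log2 difference -1.07). All 4 TRPC genes tested fell, against 27.7% of all genes, among them Trpc1 (-0.65) and Trpc6 (-0.56 on the log2 scale). Trpc6, a channel opened by diacylglycerol, held 10.1, 13.4, 16.6, 26.0 and 33.7 CPM in saline libraries and from 11.8 to 16.5 CPM with a median of 12.9 CPM after bleomycin, overlapping groups that passed narrowly (adjusted p = 0.0488). Trpv2, Trpv3 and Trpv4 fell by 0.62, 1.97 and 0.95 on the log2 scale.

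Cacng5 was the largest rise in triple-negative cells. It belongs to the gamma subunits, which in neurons also serve glutamate receptors. Its saline libraries held 0.0585, 0.0702, 0.0757, 0.156 and 0.221 CPM and its bleomycin libraries ran from 1.37 to 6.54 CPM with a median of 2.28 CPM (log2 difference 4.60 ± 0.51 (SE), adjusted p = 5.63e-06). These saline values stand for 2 to 5 counts a library and the bleomycin values for 26 to 143. Every bleomycin library was higher, and Bleomycin_Negative_638 stood above the rest. Its relative Cacng7 fell from 44.3 ± 12.5 to 19.97 ± 2.71 CPM (log2 difference -1.15).

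**Figure D3:**
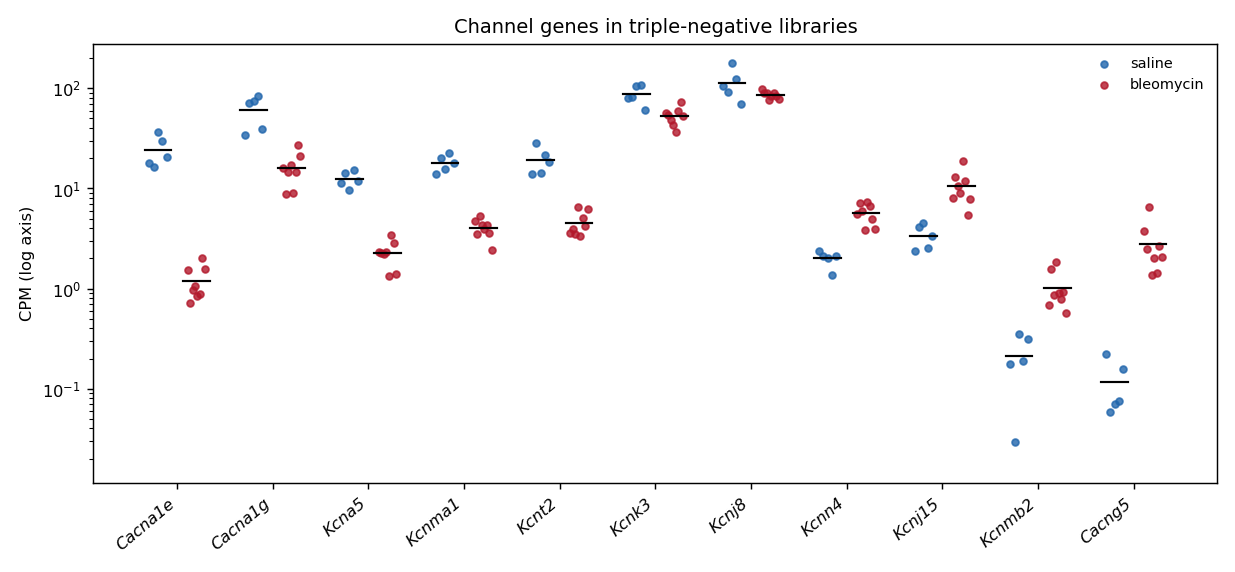
Points give CPM (log axis) of 11 channel genes in each of the 5 saline (blue) and 8 bleomycin (red) triple-negative libraries, and lines give group means. Genes from Cacna1e to Kcnt2 show bleomycin libraries below all saline libraries, Kcnk3 and Kcnj8 overlap, and Kcnn4 to Cacng5 show bleomycin libraries above.

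Markers of other cells moved in the same libraries. Of 12 smooth muscle and pericyte markers 8 fell and none rose, and their mean log2 level ran from 7.60 to 8.40 in saline libraries and from 6.32 to 7.28 in bleomycin libraries. All 10 cardiac muscle markers fell, from a level of 3.30 to 4.15 down to 2.19 to 2.79. Schwann cell markers fell in 5 of 9 tested, mast cell markers in 6 of 7 and T and B cell markers in 5 of 5. All 10 markers of dividing cells rose, and of 12 epithelial markers 4 rose and none fell. Of 12 mesenchymal markers, 6 rose and 3 fell. No marker of these lists was at 0 in every library of the fraction. The part of these shifts in the falls and rises of channel genes was not tested. With a covariate for the markers of the other sort classes (epithelial, leukocyte and endothelial), 47 channel genes fell and 17 rose. This covariate holds none of the smooth muscle and pericyte, cardiac, Schwann cell, mast cell or dividing cell lists, so it does not adjust for their shifts. The share of all genes in that run is not given here. Of the 45 channel genes highest in triple-negative cells of saline lungs, 29 fell and 3 rose, and of all genes highest there 50.4% fell and 17.8% rose. The same saline libraries enter both counts, so they are given as a description.

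In CD31+ cells most of the sodium channel genes tested rose. Of 7 sodium channel subunits tested, 5 rose and none fell, while 24.2% of all genes rose and 24.6% fell. Scn3b, already abundant, rose from 293, 309, 339.6, 361 and 387 CPM to values from 505 to 865 CPM with a median of 793 CPM (log2 difference 1.17 ± 0.12 (SE), adjusted p = 1.05e-05), without overlap. Scn3a, a pore known from developing neurons, held 1.04, 2.76, 4.59, 4.70 and 7.06 CPM in saline libraries and from 8.70 to 22.8 CPM with a median of 10.9 CPM after bleomycin (log2 difference 1.75 ± 0.39 (SE), adjusted p = 0.00303). Its groups did not overlap either. Scn8a rose at a low level, from 0.216 ± 0.0819 to 0.689 ± 0.434 CPM (log2 difference 1.64 ± 0.48 (SE), adjusted p = 0.0132). With the covariate for markers of other sort classes the adjusted p of Scn8a was 0.0766. Scn7a, the most abundant channel gene of the fraction, had means of 996 ± 193 CPM in saline and 1302 ± 367 CPM in bleomycin libraries and did not pass (adjusted p = 0.118).

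Kcnt1 (Entrez 227632, chromosome 2, bases 25863791 to 25918273), the sodium-activated potassium channel, showed the largest change of any channel gene. Saline libraries held 0, 0.0402, 0.0417, 0.0689 and 0.453 CPM, the highest being Saline_CD31_649, and bleomycin libraries ran from 2.18 to 17.7 CPM with a median of 4.66 CPM (log2 difference 5.62 ± 0.79 (SE), adjusted p = 0.000121). The saline values stand for 0 to 12 counts a library and the bleomycin values for 49 to 512. The groups did not overlap. Kcnn3, the small-conductance calcium-activated potassium channel known from endothelium, held 3.63, 4.76, 6.03, 10.6 and 10.9 CPM and then from 18.3 to 37.0 CPM with a median of 20.7 CPM (log2 difference 1.81 ± 0.31 (SE), adjusted p = 0.000458), also without overlap. Kcnj8 rose from 3.86 ± 1.55 to 10.7 ± 4.97 CPM (log2 difference 1.47), and Kcnk1 rose from 0.435 ± 0.356 to 2.23 ± 2.51 CPM (log2 difference 2.34 ± 0.78 (SE), adjusted p = 0.0249). The Kcnk1 value leans on Bleomycin_CD31_621, the library with the highest epithelial markers of the fraction (7.10, against 4.14 to 5.19 in the other bleomycin libraries), without which the log2 difference was 1.55 (adjusted p = 0.0342). Without Saline_CD31_650 its adjusted p was 0.0594.

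Of 16 voltage-gated potassium pores tested in CD31+ cells, 9 were lower and 1 was higher, while 24.6% of all genes fell and 24.2% rose. Kcna2 held 0.667, 0.827, 1.005, 2.34 and 2.59 CPM in saline libraries and from 0.0405 to 0.395 CPM with a median of 0.267 CPM after bleomycin (log2 difference -2.74 ± 0.47 (SE), adjusted p = 0.00041). Kcnh2, whose product carries a repolarising current of the heart, held 1.46, 1.49, 1.92, 2.34 and 3.995 CPM and then from 0.403 to 1.25 CPM with a median of 0.607 CPM (log2 difference -1.72 ± 0.32 (SE), adjusted p = 0.000798). Both pairs of groups were separate. Kcna5 (-2.17), Kcnd1 (-1.62) and Kcnd3 (-1.35) fell at levels under 4 CPM in every library, and the pore that rose was Kcnh1, from 68.2 ± 16.3 to 99.3 ± 22.8 CPM (log2 difference 0.54 ± 0.18 (SE), adjusted p = 0.0222). Kcnmb1 fell from 1.11 ± 0.736 to 0.318 ± 0.183 CPM (log2 difference -1.79).

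Among TRP channels of CD31+ cells 3 of 12 tested fell (25.0%, against 24.6% of all genes) and none rose. Trpm4, a cation channel opened by internal calcium, held 74.9, 75.7, 85.5, 87.5 and 93.3 CPM in saline libraries and from 39.1 to 51.5 CPM with a median of 48.6 CPM after bleomycin (log2 difference -0.81 ± 0.07 (SE), adjusted p = 4.76e-06), with clear separation. Trpm5, its relative of taste cells, fell from 1.43, 1.84, 2.21, 2.38 and 2.53 CPM to values from 0.268 to 0.890 CPM with a median of 0.593 CPM (log2 difference -1.87 ± 0.26 (SE), adjusted p = 8.58e-05). Trpc2 fell from 13.0 ± 2.08 to 5.07 ± 0.946 CPM (log2 difference -1.35), but 97.5% of its exon length is shared with the read-through gene Xntrpc on the same strand, so its count is uncertain. Trpv4 had means of 40.8 ± 10.8 CPM in saline and 42.5 ± 10.2 CPM in bleomycin libraries, a log2 difference of 0.06 ± 0.19 (SE) that did not pass (adjusted p = 0.819).

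In the CD31+ libraries smooth muscle and pericyte markers fell in 9 of 12 tested (mean log2 level from 2.87 to 4.59 in saline libraries and from 1.93 to 2.67 in bleomycin libraries) and platelet markers in 6 of 7. Markers of dividing cells rose in 10 of 10, leukocyte markers in 7 of 11 and macrophage markers in 5 of 8. Cardiac markers fell in 3 of 7 tested and none rose. Their part in the results was not tested. With the covariate for other sort classes 11 channel genes rose and 15 fell. Without Bleomycin_CD31_621, 11 rose and 17 fell. The deposited table lists the libraries in 2 runs of columns, and within the first run alone, with 3 libraries of each treatment, 7 channel genes rose and 6 fell. What the runs stand for is not given in the sources used here. The shares of all genes in these alternative fits are not given here either.

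In CD45+ cells the rises were led by Kcnn3 and Cacnb3. Kcnn3 held 1.32, 1.87, 4.07, 4.51 and 12.1 CPM in saline libraries and from 23.7 to 42.1 CPM with a median of 34.1 CPM after bleomycin (log2 difference 2.81 ± 0.44 (SE), adjusted p = 0.000151). Cacnb3, a calcium channel beta subunit, held 7.46, 10.8, 11.5, 12.5 and 14.0 CPM and then from 49.6 to 92.1 CPM with a median of 80.6 CPM (log2 difference 2.77 ± 0.19 (SE), adjusted p = 6.34e-08). Both genes were higher in every bleomycin library than in any saline library. The leak channel Kcnk6 rose from 19.0, 20.6, 21.9, 29.6 and 31.1 CPM to values from 65.1 to 84.4 CPM with a median of 75.1 CPM (log2 difference 1.64 ± 0.12 (SE), adjusted p = 9.21e-08), and Kcnk13, a leak channel known from microglia, rose from 8.18 ± 3.74 to 23.6 ± 4.50 CPM (log2 difference 1.52 ± 0.23 (SE), adjusted p = 8.43e-05). Kcne3, a KCNE subunit, rose from 2.87 ± 0.939 to 9.20 ± 1.21 CPM and Cacng8 from 0.949 ± 0.161 to 3.21 ± 0.523 CPM, with log2 differences of 1.67 and 1.75. Trpv2, the leading channel gene of the fraction, held 130.3, 133, 140.3, 141 and 147 CPM in saline libraries and from 179 to 213 CPM with a median of 206 CPM after bleomycin (log2 difference 0.55 ± 0.06 (SE), adjusted p = 1.92e-06), a smaller but separate shift.

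The falls in CD45+ cells were spread over pores of several ions. Kcnc1, a voltage-gated potassium pore, held 25.0, 26.2, 29.0, 39.5 and 43.5 CPM in saline libraries and from 2.81 to 10.9 CPM with a median of 5.51 CPM after bleomycin (log2 difference -2.46 ± 0.28 (SE), adjusted p = 6.88e-06). Cacna1i, a T-type calcium pore, held 36.7, 53.6, 55.3, 76.6 and 79.9 CPM and then from 11.8 to 30.7 CPM with a median of 19.6 CPM (log2 difference -1.55 ± 0.22 (SE), adjusted p = 4.06e-05). Neither gene's groups overlapped. Kcnk1 fell from 8.77 ± 1.37 to 2.58 ± 0.830 CPM (log2 difference -1.76), and Scn4a, the sodium pore of skeletal muscle, from 21.1 ± 7.29 to 6.76 ± 3.41 CPM (log2 difference -1.64). Trpm2 held 67.9, 84.0, 89.2, 105 and 112 CPM in saline libraries and from 35.7 to 78.8 CPM with a median of 43.4 CPM after bleomycin (log2 difference -0.93 ± 0.19 (SE), adjusted p = 0.000819), with overlap at the edge. Kcnh2 had a log2 difference of -1.90 (adjusted p = 0.00603) that rests on 1 library: Saline_CD45_646 held 23.6 CPM and the other 4 saline libraries 2.74 to 3.81 CPM, and without it the log2 difference was -0.71 (adjusted p = 0.0351). Cacna1e and Kcnk5, chosen after their values were seen, fell by 1.45 and 1.33 on the log2 scale.

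Kcna3 and Kcnn4, the potassium channels best known from lymphocytes, did not pass the test in CD45+ cells. Kcna3 had means of 25.1 ± 4.03 CPM in saline and 19.5 ± 5.32 CPM in bleomycin libraries (log2 difference -0.37 ± 0.20 (SE), adjusted p = 0.128) and Kcnn4 had means of 96.5 ± 17.7 CPM in saline and 105 ± 11.2 CPM in bleomycin libraries (log2 difference 0.12 ± 0.11 (SE), adjusted p = 0.348). Calcium channel pores divided, with 4 of 9 tested higher and 3 lower, while 28.4% of all genes rose and 26.8% fell. Cacna1d, an L-type pore, was higher (from 16.2 ± 1.53 to 29.1 ± 2.40 CPM, log2 difference 0.85 ± 0.08 (SE), adjusted p = 8.5e-07). Markers of leukocyte types moved in the same libraries: macrophage markers rose in 7 of 8, with a mean log2 level from 5.67 to 7.20 in saline libraries and from 8.74 to 9.52 in bleomycin libraries. T and B cell markers fell in 9 of 9, mast cell markers in 6 of 7, neutrophil markers in 5 of 8 and endothelial markers in 11 of 12. No marker of these lists was at 0 in every CD45+ library. Their part in the channel results was not tested, and with the covariate for other sort classes 19 channel genes rose and 26 fell. Without Bleomycin_CD45_613, 17 rose and 25 fell. The shares of all genes in these alternative fits are not given here.

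In EpCAM+ cells 4 of the 5 most abundant channel genes fell. Kcne2 held 183, 191, 193, 194 and 219 CPM in saline libraries and from 54.5 to 119 CPM with a median of 92.4 CPM after bleomycin (log2 difference -1.07 ± 0.14 (SE), adjusted p = 2.35e-05). It was below the saline range in every bleomycin library. Kcnj15 held 552, 572, 638.4, 642.4 and 649.02 CPM in saline libraries and from 307 to 598 CPM with a median of 417 CPM after bleomycin (log2 difference -0.49 ± 0.14 (SE), adjusted p = 0.00672), with overlap. Kcnj2, an inward rectifier that sets the resting potential, fell from 136, 141, 146, 154 and 177 CPM to values from 36.0 to 84.7 CPM with a median of 56.9 CPM (log2 difference -1.32 ± 0.17 (SE), adjusted p = 2.13e-05). Kcnj13 fell from 51.2 ± 6.51 to 20.01 ± 2.68 CPM (log2 difference -1.36 ± 0.09 (SE), adjusted p = 1.44e-08), and Kcnf1 from 22.1 ± 3.15 to 10.9 ± 2.99 CPM (log2 difference -1.03). Kcnk1 had means of 72.1 ± 5.26 CPM in saline and 76.8 ± 8.97 CPM in bleomycin libraries and did not pass (adjusted p = 0.331). Of the 20 channel genes highest in EpCAM+ cells of saline lungs, 10 fell and 3 rose, and of all genes highest there 39.3% fell and 30.2% rose. The same saline libraries enter both counts, and they also picked the 5 most abundant genes, so these counts are given as a description.

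Calcium and TRP channels of EpCAM+ cells moved in both directions. Cacna1d held 9.03, 10.1, 10.4, 10.6 and 10.9 CPM in saline libraries and from 2.30 to 4.04 CPM with a median of 3.07 CPM after bleomycin (log2 difference -1.68 ± 0.12 (SE), adjusted p = 3.18e-08), with no overlap. Cacna1b, the N-type pore, fell from 6.12 ± 1.58 to 2.16 ± 0.906 CPM (log2 difference -1.50). Cacna1c rose from 61.4 ± 4.68 to 82.5 ± 10.2 CPM (log2 difference 0.43). Of the 4 alpha2delta genes 3 rose, against 31.2% of all genes. These were Cacna2d3 by 1.99, Cacna2d2 by 1.80 and Cacna2d1 by 1.15 on the log2 scale, the first 2 at levels under 1.1 CPM. Of the TRPM genes 3 of 4 tested fell, against 28.9% of all genes. Trpm7, a channel fused to a kinase, went from 84.8 ± 1.60 to 59.3 ± 8.28 CPM (log2 difference -0.52) and Trpm6 from 153 ± 10.7 to 105 ± 17.7 CPM (log2 difference -0.54). Trpv6, a calcium-selective epithelial channel, fell from 40.6 ± 3.90 to 25.5 ± 4.003 CPM (log2 difference -0.67). These 3 TRP genes were chosen after their values were seen.

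Kcnn3 rose in EpCAM+ cells as well. Kcnn3 held 0.558, 0.659, 0.832, 0.882 and 2.72 CPM in saline libraries, the highest being Saline_EpCAM_656, and from 4.56 to 15.8 CPM with a median of 8.12 CPM after bleomycin (log2 difference 2.99 ± 0.48 (SE), adjusted p = 0.000112). It was higher in every bleomycin library than in any saline library. Further large rises were at low levels: Kcnmb1 from 0.268 ± 0.0841 to 0.998 ± 0.521 CPM, Scn4b from 0.134 ± 0.106 to 0.454 ± 0.264 CPM and Kcne3 from 0.905 ± 0.425 to 2.39 ± 0.860 CPM, with log2 differences of 1.89, 1.78 and 1.39. Kcnc4 had no count in 4 of 5 saline libraries and 0.330 CPM in Saline_EpCAM_658, and ran from 0.0631 to 0.825 CPM with a median of 0.510 CPM after bleomycin (log2 difference 2.56, adjusted p = 0.00712), a size that depends on that 1 library: without it the log2 difference was 6.41 (adjusted p = 0.000214), a value set by the prior count since the other saline libraries are at 0. Ciliated cell markers rose in 8 of 10 (mean log2 level from 5.09 to 5.85 in saline libraries and from 5.91 to 7.20 in bleomycin libraries), neuroendocrine markers in 9 of 10, markers of dividing cells in 9 of 10 and macrophage markers in 4 of 8. Of 12 alveolar and general epithelial markers 5 rose and 6 fell. Their part in the channel results was not tested. With the covariate for other sort classes 23 channel genes rose and 18 fell, and within the first run of columns alone 14 rose. The shares of all genes in these alternative fits are not given here.

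**Figure D4:**
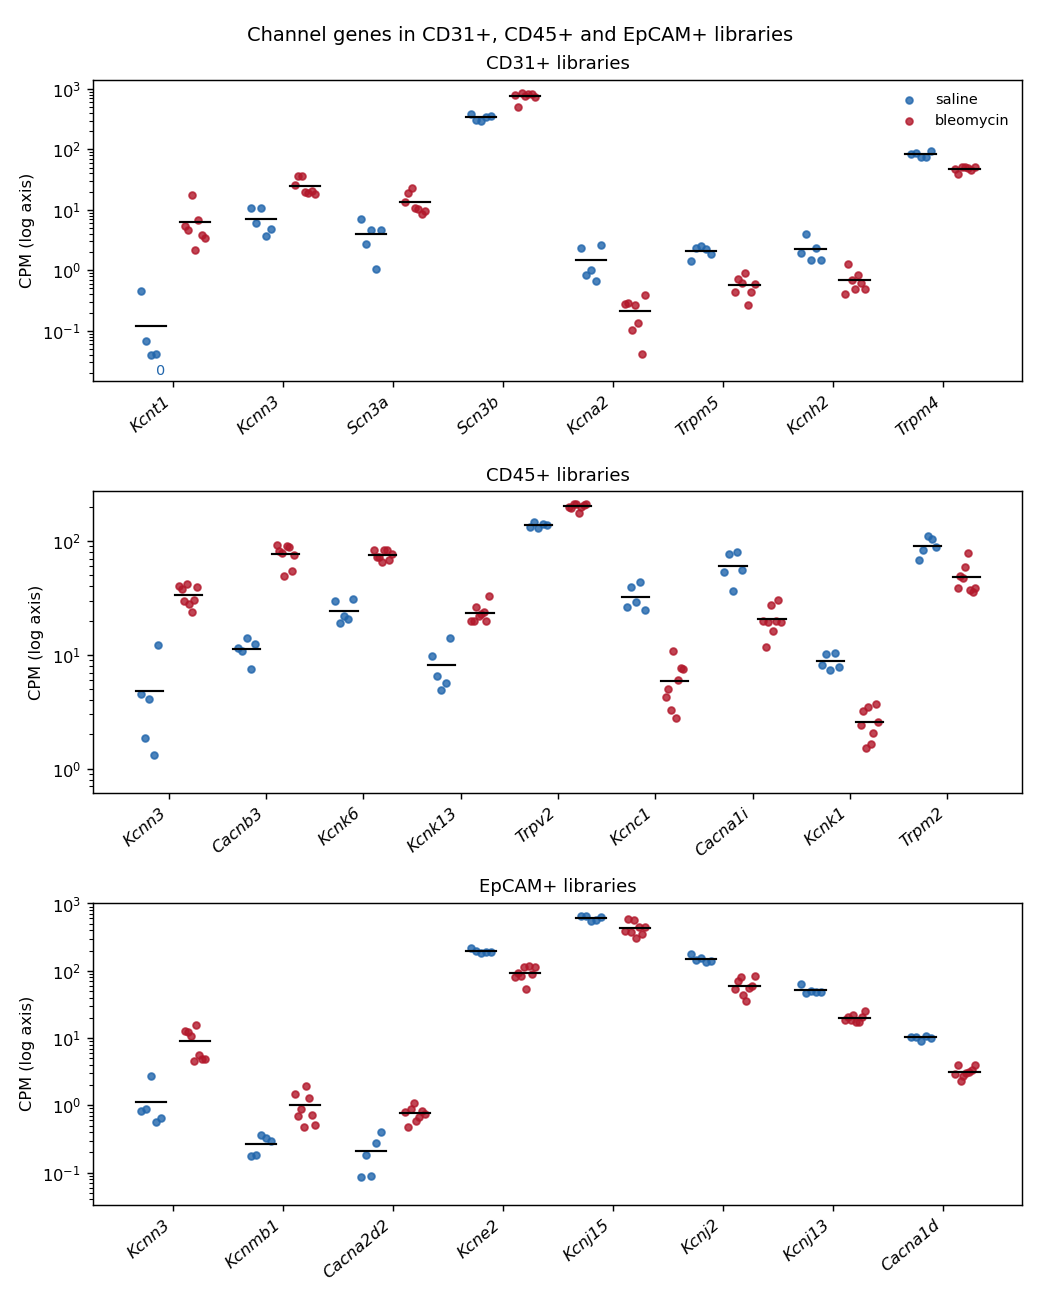
Points give CPM (log axis) of 8 or 9 channel genes per panel in each saline (blue) and bleomycin (red) library of CD31+, CD45+ and EpCAM+ cells, lines give group means, and a printed 0 marks a library with no count. Kcnn3 is higher after bleomycin in all 3 panels, while abundant genes such as Trpm4 in CD31+, Trpm2 in CD45+ and Kcne2 in EpCAM+ cells are lower.

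The effect of bleomycin differed between fractions for 87 of 116 channel genes (75.0%), against 64.3% of all genes, in an edgeR test of the 3 interaction terms together. By the fits within fractions 31 channel genes were higher in 1 fraction and lower in another, which is 37.3% of the 83 tested in at least 2 fractions, against 21.9% of the 16751 genes so tested. For 30 of them the interaction also passed (36.1%, against 21.5%). The same libraries gave the calls and the interaction. Over all genes 3673 had such opposite calls and 3604 of these also passed, so the interaction is not separate support. Kcnn3 rose in CD31+, CD45+ and EpCAM+ cells and fell in triple-negative cells, from 5.31, 7.72, 9.73, 14.4 and 15.4 CPM to values from 2.56 to 7.65 CPM with a median of 3.70 CPM (log2 difference -1.27 ± 0.28 (SE), adjusted p = 0.00137), with overlap in this fraction alone. The interaction had an adjusted p of 4.16e-09. Kcnt1 rose by 5.62 in CD31+ cells and fell by 1.53 in triple-negative cells on the log2 scale (interaction adjusted p = 1.32e-11). Kcnj8 showed the same pair of directions, 1.47 and -0.41 (interaction adjusted p = 2.2e-06).

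Further crossings joined the epithelial and triple-negative fractions. Kcnj11, Kcnmb1, Cacna2d2, Cacna2d3, Kcnc4, Cacna1h, Scn4b, Kcnk2, Trpv4 and Trpc1 rose in EpCAM+ and fell in triple-negative cells. Trpv4 fell from 7.06, 7.70, 7.72, 8.60 and 9.56 CPM to values from 2.70 to 6.52 CPM with a median of 3.88 CPM in triple-negative cells and rose from 4.05 ± 1.05 to 5.89 ± 0.812 CPM in EpCAM+ cells (interaction adjusted p = 2.29e-05). Kcnj15 and Kcne2, epithelial genes in saline lungs, fell in EpCAM+ and rose in triple-negative cells, by 1.64 and 1.26 on the log2 scale, where epithelial markers rose in 4 of 12. Their triple-negative means after bleomycin were 10.6 and 0.831 CPM, against 436 and 93.7 CPM in EpCAM+ cells. The part of epithelial RNA in these rises was not tested. Kcnk6 rose in CD45+ cells and fell in EpCAM+ and triple-negative cells, with the smallest interaction p of the crossing genes (2.12e-15). Cacna1b and Cacna1d rose in CD45+ and fell in EpCAM+ cells, and Kcnc1 did the reverse. Cacna1c, higher in EpCAM+ and lower in triple-negative cells, had an interaction adjusted p of 0.0702 and is not counted among the 30. Some of these calls are near the threshold: that of Trpc1 in EpCAM+ cells was lost when any 1 of 2 libraries was left out, that of Kcnc1 there with any 1 of 6, and in triple-negative cells that of Kcng1 with any 1 of 2 and that of Kcne2 with any 1 of 9 (adjusted p up to 0.116). Without the low-count filter the triple-negative calls of Kcnk6, Kcne2 and Kcnj8 were lost (adjusted p = 0.0548, 0.0558 and 0.0981 by edgeR).

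**Figure D5:**
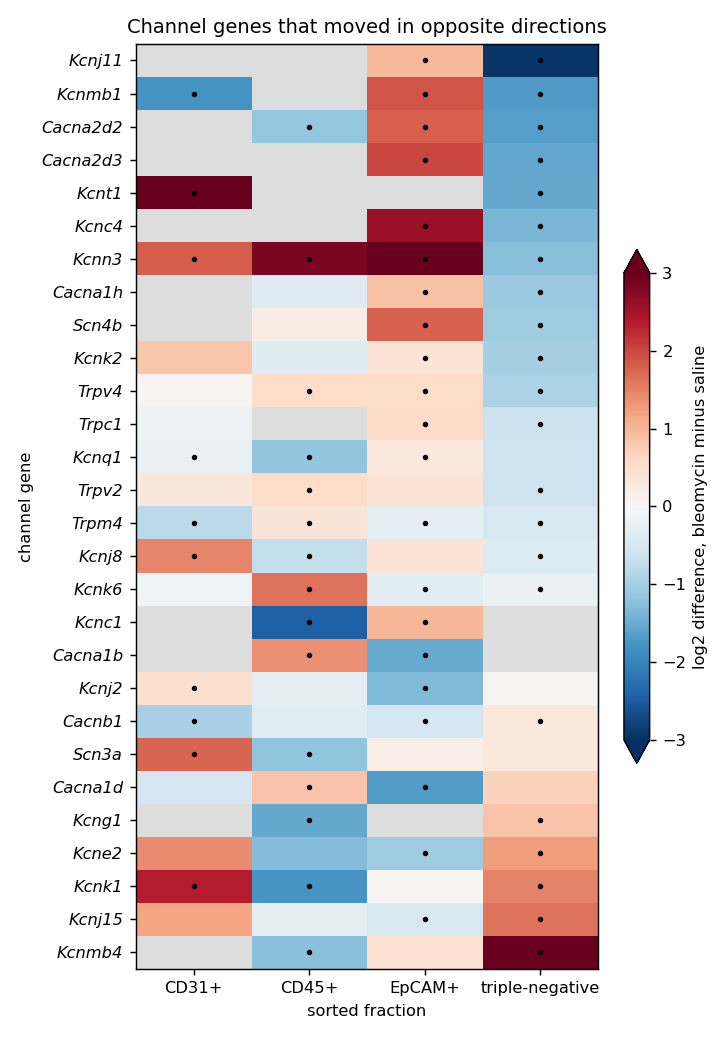
Colour gives the log2 difference between bleomycin and saline libraries in each sorted fraction for 28 of the 30 channel genes called in opposite directions, ordered by their triple-negative value, with dots where the adjusted p was under 0.05 and grey where the gene was not tested; the colours end at -3 and 3. Genes at the top are blue in triple-negative cells and red in EpCAM+ or CD31+ cells, and those at the bottom are red in triple-negative and mostly blue in CD45+ or EpCAM+ cells.

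Called the same way, 14 of the 83 channel genes tested in at least 2 fractions rose in 2 or more (16.9%, against 29.9% of all genes so tested), and 24 fell in 2 or more (28.9%, as of all genes). The 3 genes called in all 4 fractions (7.14% of the 42 tested in all 4, against 14.7% of all genes) were Kcnn3, Trpm4 and Kcnk7. Trpm4 fell in CD31+ (-0.81), EpCAM+ (-0.30) and triple-negative cells (-0.49) and rose by 0.38 in CD45+ cells, a call lost when any 1 of 7 libraries was left out (adjusted p up to 0.100). Kcnk7, named here only because it completes this count, fell in every fraction, by 0.85, 0.49, 1.31 and 1.34 on the log2 scale in CD45+, EpCAM+, triple-negative and CD31+ cells.

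Of 52 companion genes outside the symbol rule (auxiliary subunits, epithelial sodium channel, store-operated, intracellular and mechanosensitive channels), 28 of 45 tested changed in triple-negative cells (62.2%, against 55.4% of all genes), 10 higher and 18 lower. Piezo2, a mechanically gated channel, rose from 13.8 ± 1.28 to 123 ± 43.6 CPM (log2 difference 3.16 ± 0.24 (SE), adjusted p = 3.74e-07). Abcc9, the partner of Kcnj8 in the vascular ATP-sensitive channel, fell (log2 difference -1.27 ± 0.10 (SE), adjusted p = 2.92e-07), as did the ryanodine receptor Ryr2 (-1.69) and the pacemaker channel Hcn4 (-2.00). In EpCAM+ cells 17 of 42 rose and 9 fell (61.9% in all, against 60.2% of all genes), among them the epithelial sodium channel subunits Scnn1a (0.61), Scnn1b (1.62) and Scnn1g (1.74), which rose. In CD45+ cells 8 of 35 rose and 14 fell (62.9%, against 55.3%), with the lysosomal channel Mcoln3 highest among the rises (2.48). In CD31+ cells 8 of 37 rose and 9 fell (45.9%, against 48.8%), and Fgf13, a partner of sodium channel pores, rose by 2.20 there and fell by 1.95 in triple-negative cells. Whether that pair of effects differs was not tested.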

How the data were processed

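RNA of 51 sorted lung libraries (RNeasy, stranded total RNA kit, per the labels' protocols) was measured as whole-number read counts per Entrez gene. The authors deposited these counts as a table of all libraries and as single files. The table's columns matched all 51 files, 0 columns belonged to no sample and 0 library pairs were identical. The build GRCm38 is named in the submitters' processing notes. Aligner, counter, annotation and strand setting are not given in the sources used here. RefSeq on GRCm38.p6 gave symbols for all 149 channel genes and promoters for 112. Exon lengths of all 149, used for CPM per kb, and exon overlaps came from the GENCODE mouse annotation.

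Within each fraction, genes were filtered by filterByExpr, scaled by TMM and compared with edgeR 4.0.16 (robust quasi-likelihood F test, R 4.3.3), with Benjamini-Hochberg adjustment over all genes tested. A fit of all 51 libraries gave saline levels and interaction tests. CPM is given as mean ± SD over libraries, and SE is that of the log2 difference. The code was tested on simulated data. Alternatives used RLE size factors, no filter, DESeq2 1.42.0, limma 3.58.1, a marker covariate and leaving out each library. Named genes were the 8 largest rises and falls per fraction, the 5 highest saline levels and 6 widest margins per fraction, and genes called in opposite directions; others, and members of small classes, were added after their values were seen. Channel genes, companion lists and marker lists were chosen with earlier results of these data known. Some channel genes are counted but not reported singly here. Libraries were treated as independent. Depth was 15692665 to 36514885 counts per library.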

Additional observations from a re-analysis of the deposited data

Results flagged for a closer look

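Single libraries stood apart from the rest of their group in 10 of 118 groups of values examined for the named genes, by the gap to the nearest other library. For normally distributed values chance alone sets apart about 1 group in 20. The rate for skewed CPM values near 0, as in some of these groups, is not known, so the 10 are not read as an excess. In CD31+ cells these were Kcnt1 at 17.7 CPM in Bleomycin_CD31_622 and at 0.453 CPM in Saline_CD31_649, and Kcnk1 at 7.87 CPM in Bleomycin_CD31_621. In CD45+ cells Kcnh2 stood apart at 23.6 CPM in Saline_CD45_646 and at 3.94 CPM in Bleomycin_CD45_613. In EpCAM+ cells they were Kcnj13 at 62.6 CPM in Saline_EpCAM_654, Kcnn2 at 2.15 CPM in Bleomycin_EpCAM_632, Kcnn3 at 2.72 CPM in Saline_EpCAM_656 and Kcnc4 at 0.330 CPM in Saline_EpCAM_658. In triple-negative cells Cacng5 stood apart at 6.54 CPM in Bleomycin_Negative_638. Without the library concerned, the log2 difference moved by over 1.5 times for Kcnc4 in EpCAM+ cells (6.41, from 2.56, against saline libraries that are then all at 0), Kcnh2 in CD45+ cells (-0.71, from -1.90) and Kcnk1 in CD31+ cells (1.55, from 2.34), and each stayed past the threshold.

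The effect of bleomycin differed between fractions for channel genes called in opposite directions, by the adjusted p of edgeR's interaction test. The opposite calls that picked these genes came from the same libraries, so the p-values are given as a description. Among potassium channel genes these were Kcnc1 (5.92e-07), Kcnc4 (0.00118), Kcne2 (0.000619), Kcng1 (0.00116), Kcnj11 (5.19e-06), Kcnj15 (0.00115), Kcnj2 (2.85e-05), Kcnj8 (2.2e-06), Kcnk1 (7.36e-08), Kcnk2 (0.00158), Kcnk6 (2.12e-15), Kcnmb1 (6.66e-07), Kcnmb4 (6.82e-08), Kcnn3 (4.16e-09), Kcnq1 (0.000521) and Kcnt1 (1.32e-11). Among calcium, sodium and TRP channel genes they were Cacna1b (1.05e-07), Cacna1d (3.61e-07), Cacna1h (7.13e-05), Cacna2d2 (1e-06), Cacna2d3 (9.82e-07), Cacnb1 (3.1e-06), Scn3a (0.000695), Scn4b (0.00254), Trpc1 (0.0159), Trpm4 (1.13e-07), Trpv2 (0.0138) and Trpv4 (2.29e-05).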

How the results depend on the processing

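No paired analysis was possible because every library carries its own number and no number is shared between groups. No direction reversed in any alternative run among the 108 results on named genes, the only ones whose direction was checked. Most counts of called channel genes stayed within 1.5 times the reported ones under RLE size factors, no filter on low counts, DESeq2 and the marker covariate, all planned. The exception was EpCAM+ cells, where 38 channel genes rose without the filter (23 with it), out of more genes tested. Shares of all genes in the alternative runs are not given here, so their counts show no excess or lack against all genes. Fits by runs of table columns were chosen after seeing the data. Within the first run alone, 7 rose and 6 fell in CD31+ cells (12 and 18 in all libraries) and 14 rose in EpCAM+ cells, from fewer libraries. Leaving out each library in turn gave 10 to 14 rises and 13 to 18 falls in CD31+, 15 to 19 and 23 to 25 in CD45+, 19 to 24 and 18 to 20 in EpCAM+, and 12 to 16 and 46 to 49 in triple-negative cells. From the 20 saline libraries alone, it gave 9 to 9, 15 to 18, 17 to 20 and 38 to 43 genes highest in CD31+, CD45+, EpCAM+ and triple-negative cells, against 9, 16, 18 and 40 with all 20. By limma voom it gave 77 to 85 genes whose effect differed between fractions (81 with all libraries, 87 by edgeR). Of 108 results on named genes, 94 kept their call without any 1 library. The 14 that lost it were Kcnk1, Kcnj2 and Kcnq1 in CD31+, Cacna2d2, Scn3a, Trpm4 and Trpv4 in CD45+, Kcnc1, Kcnq1 and Trpc1 in EpCAM+, and Kcne2, Cacnb1, Kcng1 and Kcnj8 in triple-negative cells, with adjusted p up to 0.190. Calls were also lost for Kcnk6, Kcne2 and Kcnj8 in triple-negative cells without the low-count filter (adjusted p = 0.0548, 0.0558 and 0.0981 by edgeR), for Trpv4 in CD45+ cells without the filter (0.0594) and with RLE (0.0514), and for Scn8a (0.0766) and Kcnj2 (0.132) in CD31+ cells with the marker covariate. The call of Kcnq1 in CD31+ cells was lost with RLE (0.0520), no filter (0.0886), DESeq2 (0.0664) and the covariate (0.170). Of the results on named genes, 30 lost their call in the first run of columns alone, 19 in the second, and 1 with run as a covariate. The causes were not tested. Genes under about 1 CPM rest on few reads.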
